A study of Homo sapiens with 8 samples.

Results

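ABL2 (also called Arg) was knocked down with 1 short hairpin RNA (shRNA) in LM2 cells, and the sample (shABL2) was compared with cells given a scrambled shRNA (shCtrl), which targets no gene by design. LM2 is a triple-negative line derived from the human breast cancer line MDA-MB-231 and selected for spread to the lungs. Both lines were made stable by 48 h of incubation with lentivirus in the presence of Polybrene and by puromycin selection, and they were not treated with Ponatinib. The comparison uses 2 of the 8 samples of the series, 1 per group, and 12263 of the 58688 genes in the files had at least 50 counts in 1 of the 2 samples. The level of a gene is its count per 1000000 counts on genes (CPM), and each difference is a log2 ratio of CPM, shABL2 over shCtrl, so that 1 is a doubling. A gene was called higher or lower when it differed by over 2-fold. Intervals are 95% intervals of the counting error and do not cover the spread between cultures, for which these groups have no replicates and no test. A sample with ABL1 shRNA (shABL1) and a sample with both shRNAs (shABL1+shABL2), also 1 each, are given beside them. All 3 knockdown samples share the same shCtrl sample, and each target gene is represented by 1 hairpin.

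ABL2 encodes a non-receptor tyrosine kinase that, with its paralog ABL1, relays signals from growth factor receptors and integrins to the cytoskeleton. ABL2 also binds F-actin directly, and it is known for its part in cell-edge protrusion, adhesion and invadopodia, the matrix-degrading protrusions of invasive breast cancer cells. A hairpin in the pLKO.1 vector lowers the mRNA of its target by RNA interference and leaves the gene itself intact.

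The counts on genes summed to 11610339 in shCtrl and 12456859 in shABL2, within the 7568934 to 13010896 of the series, so that 3 counts were worth 0.258 and 0.241 CPM. The header cell of the shCtrl file carries the ABL1 name and that of the shABL1 file the control name, and here the sample labels were followed. LM2 markers fitted the label in part. VIM, a marker of the line, was at 2297 CPM in shCtrl and 1896 in shABL2. Of the genes listed as low in LM2, PGR had 0 counts in both, and ESR1 and CDH1 were under 1 CPM in both. ERBB2, also listed as low, was at 63.8 CPM in shCtrl and 66.3 in shABL2, and EPCAM at 9.04 and 5.86 CPM. Of 17 markers of other cell types, 16 in shCtrl and 15 in shABL2 were under 3 CPM, and 6 and 9 were at 0. PECAM1, an endothelial adhesion molecule, was above that level in both, at 20.1 and 40.1 CPM, and the monocyte marker CD14 in shABL2, at 5.7 CPM. The endothelial markers VWF and CDH5 were at most 1.03 CPM.

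ABL2 (chromosome 1, 179099330 to 179229684) was at 231 CPM in shCtrl, 212 in shABL1, 94.5 in shABL2 and 149 in shABL1+shABL2. It was lowest in the sample given the ABL2 hairpin alone and intermediate with both hairpins. The shABL2 level was 2.45-fold below shCtrl, a log2 ratio of -1.29 (-1.39 to -1.19), so that a part of the ABL2 mRNA remained. In bulk RNA, fewer cells with the mRNA and less mRNA per cell cannot be told apart. ABL1 (chromosome 9, 130713043 to 130887675) was at 186 CPM in shCtrl, 72.6 in shABL1, 205 in shABL2 and 111 in shABL1+shABL2. It was low in the samples with the ABL1 hairpin, and shABL2 was close to shCtrl with a log2 ratio of 0.14 (0.06 to 0.22). With each file read as the sample its label names, the target of each hairpin was thus lowest where that hairpin was used alone.

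**Figure D1:**
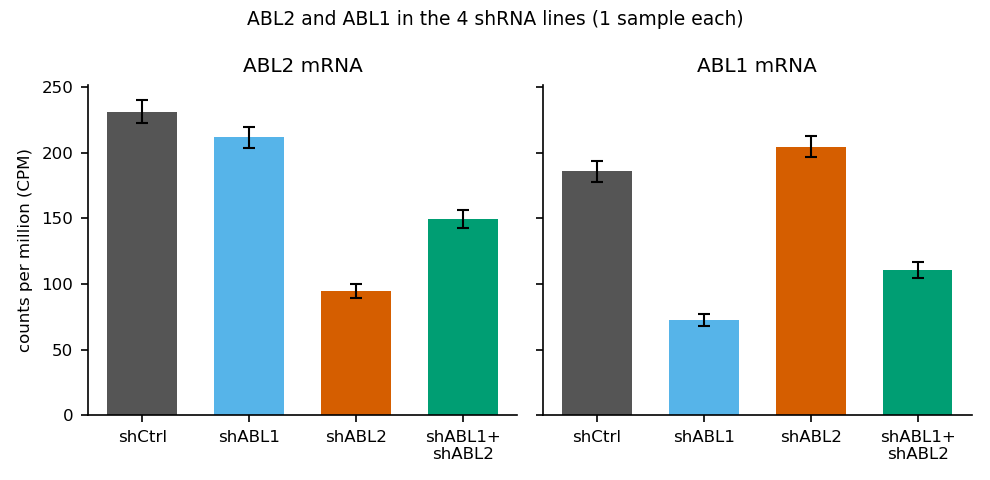
Levels of ABL2 and ABL1 mRNA in CPM (bars) with 95% exact (Clopper-Pearson) intervals of the counting error (lines) in the 4 shRNA samples, 1 sample each. ABL2 was at 231 CPM in shCtrl and 94.5 in shABL2, and ABL1 was at 186 and 205 CPM in the same samples.

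Among the 12263 genes, 324 were over 2-fold higher in shABL2 (2.64%) and 155 were over 2-fold lower (1.26%), together 3.91%. These shares are the background for the counts of each gene list below. The lists were chosen with earlier results of these data known, so their counts and shares are descriptions and not independent evidence. By the same rule, 4 of 12311 genes (0.0325%) differed between the DMSO samples and 31 of 12168 (0.255%) between the Ponatinib samples of the other experiment. Those pairs are the only replicates in the series and were not made by lentiviral infection. The median gene of the ABL2 comparison had a log2 ratio of 0.03, and the middle of the distribution ran from -0.17 to 0.26 between the quartiles. The lower genes started from higher levels than the higher genes, with median levels of 23.9 CPM in shCtrl and 9.15 in shABL2 against 5.56 and 13.2. Over 4-fold differences were as frequent in both directions, with 17 genes each, and no called gene was at 0 in either sample. The interval lay wholly beyond 2-fold for 97 of the higher and 71 of the lower genes. The threshold cuts through a continuous range: VLDLR at 1.0007 and GGT7 at -1.0006 were just inside it, and STX1A at 0.9994 and VIPR1 at -0.9986 were just outside. Of the genes named below, CSF3, FGF1, MUC5B, DUSP5, HES6, VLDLR, MERTK, IL24, AGRN, LAMB3 and PCDHGA1 were so near 2-fold that TMM scaling, which lowers each ratio by 0.06, took them under it. The nuclear chromosomes had medians between -0.02 and 0.08 and held between 1.46% (chromosome 19) and 5.23% (chromosome 20) of genes over 2-fold.

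**Figure D2:**
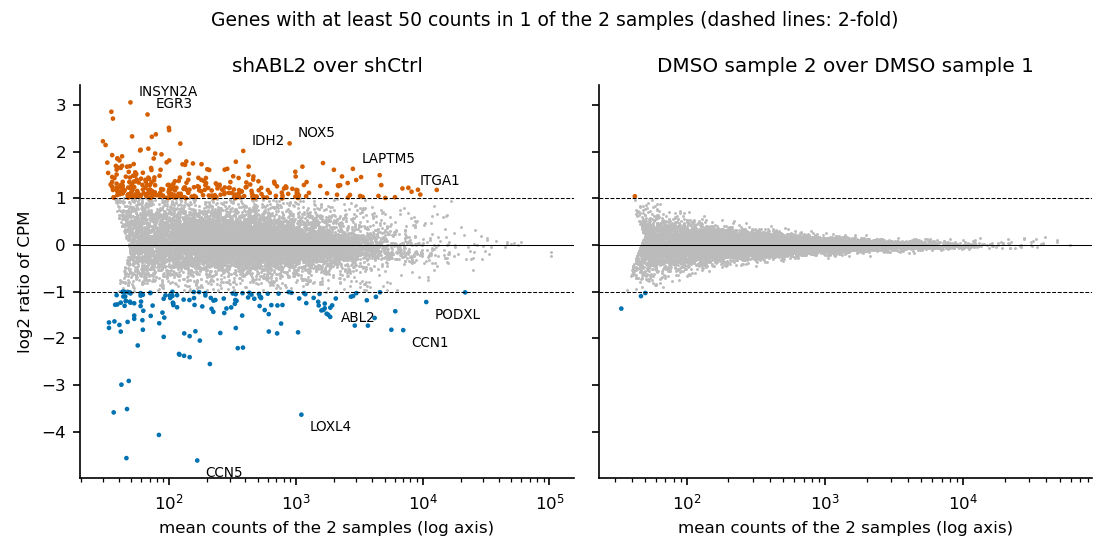
Log2 ratio of CPM for each gene against the mean counts of the 2 samples (log axis) for shABL2 over shCtrl and, for scale, for one DMSO sample over the other, with genes over 2-fold in colour. The ABL2 comparison has 479 genes over 2-fold at all count levels, and the DMSO pair has 4, all at low counts.

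The largest falls included secreted and matrix proteins. CCN5 (chromosome 20, 44714844 to 44728509), a matricellular protein of the CCN family that restrains growth and invasion in some breast cancer lines, was at 27.5 CPM in shCtrl, 3.69 in shABL1, 1.12 in shABL2 and 2.91 in shABL1+shABL2. All 3 knockdown samples were below shCtrl and shABL2 was the lowest, with a log2 ratio of -4.61 (-5.50 to -3.84). LOXL4 (chromosome 10, 98247690 to 98268194), a lysyl oxidase that cross-links collagen and elastin, was at 175 CPM in shCtrl, 36.1 in shABL1, 14.1 in shABL2 and 27.1 in shABL1+shABL2, with a log2 ratio of -3.63 (-3.86 to -3.41). Its order was that of CCN5, from a level high enough to leave a narrow interval. SHOC1, which acts in meiotic crossover formation, went from 13.4 to 0.803 CPM in shABL2 and SNCAIP, a synuclein-binding protein, from 5.77 to 0.482 CPM. In shABL1 SHOC1 was at 2.61 CPM and SNCAIP at 0.307 CPM. CP, the copper-carrying ferroxidase ceruloplasmin, was at 7.32 CPM in shCtrl and 0.642 in shABL2, and in shABL2 it had 8 counts. CP was at 0.307 CPM in shABL1, with 4 counts. The acute-phase protein SAA2 was at 6.37 CPM in shCtrl, 4.61 in shABL1 and 0.803 in shABL2, and part of its reads may belong to its near-identical neighbour SAA1. The complement genes C4A (18.7 to 3.61 CPM) and C4B (17 to 3.37 CPM) are near-identical copies, so that their reads could be split between them in either sample. C4A and C4B were at 4.15 and 4.69 CPM in shABL1.

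Several of the other large falls concern growth, survival and differentiation. BMF, a BH3-only protein that promotes apoptosis of detached cells, was at 53.3 CPM in shCtrl, 7.69 in shABL1, 11.6 in shABL2 and 7.16 in shABL1+shABL2. It was low in each knockdown sample, and its shABL2 ratio was -2.20 (-2.47 to -1.93). BMF was the only 1 of 15 BCL2 family genes over 2-fold apart, a share of 6.67% against 3.91% of all genes. ELF3, an epithelial transcription factor, was at 20.8 CPM in shCtrl, 13.3 in shABL1, 3.93 in shABL2 and 10.3 in shABL1+shABL2, with a ratio of -2.40 (-2.87 to -1.95). F13A1, the catalytic subunit of coagulation factor XIII, was at 30.5 CPM in shCtrl, 21.3 in shABL1, 5.22 in shABL2 and 19 in shABL1+shABL2, with a ratio of -2.55 (-2.95 to -2.16). For these last 2 genes shABL2 lay well below all other samples. The transcription factors ATOH8 (17.1 to 3.37 CPM) and MEOX1 (7.84 to 1.77 CPM), the kinase ALPK2 (7.23 to 0.963 CPM) and FILIP1L (48.6 to 10.5 CPM) completed the 15 largest falls among protein-coding genes. In shABL1 ATOH8 was at 4.61 CPM, MEOX1 at 2.38, ALPK2 at 3.46 and FILIP1L at 4.84, the last below its shABL2 level.

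The largest rises were mostly of genes at low levels in shCtrl, which passed the minimum of 50 counts through shABL2 alone. INSYN2A, known as a component of inhibitory synapses, had 10 counts in shCtrl, 14 in shABL1, 89 in shABL2 and 32 in shABL1+shABL2, a log2 ratio of 3.05 (2.11 to 4.16). EGR3, an immediate early transcription factor, had 16 counts in shCtrl, 42 in shABL1, 119 in shABL2 and 49 in shABL1+shABL2, a ratio of 2.79 (2.03 to 3.65). Both genes were highest in shABL2, and the interval of each spans more than a doubling with few counts in shCtrl. EGR3 was the only 1 of 22 immediate early genes over 2-fold apart, a share of 4.55% close to the 3.91% of all genes tested, and the median of that list was 0.03. Proteolysis was represented by the metalloproteinases ADAMTS14 (2.5 to 13.7 CPM) and ADAM12 (1.98 to 9.87 CPM) and the serine protease PRSS22 (2.07 to 10.7 CPM). F2RL3 (0.775 to 5.06 CPM) encodes PAR4, a thrombin receptor. At higher counts, NOX5, an NADPH oxidase that makes superoxide, was at 26.3 CPM in shCtrl, 76.7 in shABL1, 119 in shABL2 and 108 in shABL1+shABL2, and IDH2, the mitochondrial isocitrate dehydrogenase, was at 12.4 CPM in shCtrl, 35.5 in shABL1, 50.1 in shABL2 and 41.2 in shABL1+shABL2. Their ratios were 2.18 (2.00 to 2.36) and 2.01 (1.75 to 2.29), and each knockdown sample lay above shCtrl. The other rises were CFP (2.41 to 13.7 CPM), the complement activator properdin, PLB1 (1.38 to 6.9 CPM), a phospholipase, LAT2 (3.62 to 16.3 CPM), an adaptor of immune receptors, CHST6 (1.89 to 7.79 CPM), a keratan sulfate sulfotransferase, UNC5B (1.89 to 7.71 CPM), a netrin receptor, ANKRD22 (0.861 to 4.01 CPM) and RP1L1 (2.15 to 8.99 CPM). For CFP, UNC5B, PRSS22, ADAM12, PLB1, LAT2, ANKRD22 and RP1L1, shCtrl lay over 2-fold below each other shRNA sample. CFP, UNC5B and PRSS22 were at 16.4, 9.3 and 10.8 CPM in shABL1, at or above their shABL2 levels. For ADAMTS14, F2RL3 and CHST6 shABL1 was nearer shCtrl, at 3.15, 1.38 and 2.69 CPM.

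YAP and TAZ are coactivators that enter the nucleus when cells are spread and under tension, bind TEAD factors and switch on genes of adhesion and matrix. Of 24 YAP target genes, 6 were over 2-fold lower (25%, against 1.26% of all genes tested) and none was higher, with a median log2 ratio of -0.70 against 0.03 for all genes tested. CCN1, a matricellular integrin ligand, was at 928 CPM in shCtrl, 401 in shABL1, 263 in shABL2 and 367 in shABL1+shABL2. THBS1, the matrix protein thrombospondin 1, was at 747 CPM in shCtrl, 285 in shABL1, 213 in shABL2 and 258 in shABL1+shABL2. Their ratios were -1.82 (-1.88 to -1.77) and -1.81 (-1.88 to -1.75), and shABL2 was the lowest of the 4 samples for both. ANKRD1, a nuclear ankyrin repeat protein, was at 224 CPM in shCtrl, 131 in shABL1, 79.6 in shABL2 and 97.3 in shABL1+shABL2, with a ratio of -1.49 (-1.60 to -1.39). TGFB2, a TGF-beta ligand, went from 201 to 76.8 CPM, a level that shABL1 at 77.1 and shABL1+shABL2 at 65.6 shared. The LIM protein AJUBA was at 226 CPM in shCtrl, 189 in shABL1, 89.2 in shABL2 and 163 in shABL1+shABL2, and the angiomotin AMOTL2 was at 159.5 CPM in shCtrl, 141 in shABL1, 72.8 in shABL2 and 125 in shABL1+shABL2. For these last 2, both regulators of the Hippo pathway, shABL2 was the lowest sample and shABL1 was close to shCtrl. CCN2, another classical target, was at 126 CPM in shCtrl, 85.2 in shABL1, 75.6 in shABL2 and 79.2 in shABL1+shABL2, a ratio of -0.74 that did not reach 2-fold. Among 23 genes of the Hippo core and TEAD factors, WWTR1, which encodes TAZ, was higher (119 to 299.8 CPM) and WWC1, which encodes the upstream regulator KIBRA, was lower (75.9 to 27.2 CPM). The median of that list was -0.09, and its share over 2-fold was 8.7%, against 3.91% of all genes. In shABL1 and shABL1+shABL2 the medians of the YAP targets were -0.56 and -0.58 against the same shCtrl sample.

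The 250 bases before the RefSeq start of 2 of the lower YAP targets are shown because GGAATG, the letters TEAD factors are known to bind, occur in them (capitals). They were read on GRCh38.p14, the assembly also called hg38, 5′ to 3′ on the strand of the gene. The ANKRD1 stretch is chr10:90921088-90921337 on the minus strand, with matches starting 220 and 128 bases before the start. The THBS1 stretch is chr15:39580829-39581078 on the plus strand, with a match 46 bases before the start.
ANKRD1: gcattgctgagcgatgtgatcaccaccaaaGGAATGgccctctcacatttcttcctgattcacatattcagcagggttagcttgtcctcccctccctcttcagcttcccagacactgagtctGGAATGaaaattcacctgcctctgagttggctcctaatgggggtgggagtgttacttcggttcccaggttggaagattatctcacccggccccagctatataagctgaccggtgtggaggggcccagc
THBS1: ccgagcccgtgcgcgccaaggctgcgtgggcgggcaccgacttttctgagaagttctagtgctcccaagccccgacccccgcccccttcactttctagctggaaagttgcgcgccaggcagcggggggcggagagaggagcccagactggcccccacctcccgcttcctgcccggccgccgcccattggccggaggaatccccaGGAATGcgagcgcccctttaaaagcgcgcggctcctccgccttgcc
GGAATG was searched on both strands in each 300-base RefSeq promoter, which runs from 250 bases before to 50 bases after a start, and 11.4% of the 13956 promoters of the genes tested held it. The table had 21 promoters for 18 of the 24 YAP targets, of which 11 held the letters (52.4%), and 6 of the 24 genes, among them CCN1, had no entry. The list was written of known YAP targets, so this share describes the list and not the comparison. List members with ratios near 0, such as FOXF2 (0.02) and PTPN14 (0.09), held the letters as well. Of the promoters of the lower genes as a whole, 16.2% of 179 held the letters, and of the higher genes 12.2% of 303. The 29 lower promoters with the letters include 1 each of THBS1, ANKRD1, TGFB2, AJUBA and AMOTL2, which are YAP targets of the list. A match is a description of the sequence and not a bound site.

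Chemokines recruit leukocytes, and ligands of CXCR1 and CXCR2 such as CXCL8 and CXCL1 are known to be made by MDA-MB-231 cells. Of 7 measured chemokine and receptor genes, 5 were lower (71.4%, against 1.26% of all genes) and 1 was higher, with a median of -1.19. CXCL8 was at 379 CPM in shCtrl, 133 in shABL1, 115 in shABL2 and 75.4 in shABL1+shABL2, a shABL2 ratio of -1.72 (-1.81 to -1.64). CXCL1 was at 234 CPM in shCtrl, 125 in shABL1, 80.7 in shABL2 and 67.8 in shABL1+shABL2, a ratio of -1.54 (-1.64 to -1.43). For both, shCtrl was the highest and shABL1+shABL2 the lowest sample. The paralogs CXCL2 (39.9 to 17.4 CPM) and CXCL3 (15.2 to 6.74 CPM), which share much of their sequence with CXCL1, and CCL20 (6.03 to 1.93 CPM), the ligand of CCR6, were lower as well. CCR1, a receptor for CCL chemokines, was at 8.35 CPM in shCtrl, 11.7 in shABL1, 25.4 in shABL2 and 12.7 in shABL1+shABL2 and stood out as the 1 member that was higher.

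The interleukins did not move as 1 group, with 2 of 28 genes higher, 2 lower and a median of 0.07. The share was 7.14% each way, against 2.64% higher and 1.26% lower of all genes. IL6, the acute-phase inducer, was at 69.3 CPM in shCtrl, 35.3 in shABL1, 26.4 in shABL2 and 20.2 in shABL1+shABL2, a ratio of -1.39 (-1.58 to -1.21). IL32, a proinflammatory cytokine, went from 10.8 to 3.37 CPM. CSF3, the granulocyte colony-stimulating factor, was higher, from 181 to 370.0 CPM, with a ratio of 1.03 (0.96 to 1.10), and IL24, at 23 and 50 counts, was just past 2-fold. The 23 NF-kB subunits and feedback genes had a median of -0.27, with TNFRSF9 (1.46 to 4.74 CPM) higher by over 2-fold and none of these 23 lower. Their share over 2-fold was 4.35%, near the 3.91% of all genes. SOD2, which is also on that list, could not be matched by its ID to a gene of the files and is not among the 23.

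The upstream 250 bases of 4 of the lower cytokine genes are shown with the letters GGANTTTCC, a form of the NF-kB binding sequence, in capitals. CXCL1 is at chr4:73869143-73869392 on the plus strand, CXCL2 at chr4:74099196-74099445 on the minus strand, CXCL8 at chr4:73740319-73740568 on the plus strand and IL6 at chr7:22726950-22727199 on the plus strand. The matches start 78, 77, 91 and 72 bases before the RefSeq start. The GENCODE gene models of CXCL8 and IL6 begin within and before these stretches, respectively.
CXCL1: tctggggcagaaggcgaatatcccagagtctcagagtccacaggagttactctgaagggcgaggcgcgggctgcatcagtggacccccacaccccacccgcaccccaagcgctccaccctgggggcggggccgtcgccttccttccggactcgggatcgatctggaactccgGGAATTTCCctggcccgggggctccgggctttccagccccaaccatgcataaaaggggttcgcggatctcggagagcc
CXCL2: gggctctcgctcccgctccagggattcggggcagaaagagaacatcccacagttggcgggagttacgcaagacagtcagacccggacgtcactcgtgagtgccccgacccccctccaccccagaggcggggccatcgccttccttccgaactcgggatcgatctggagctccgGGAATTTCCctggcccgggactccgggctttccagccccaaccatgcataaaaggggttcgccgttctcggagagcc
CXCL8: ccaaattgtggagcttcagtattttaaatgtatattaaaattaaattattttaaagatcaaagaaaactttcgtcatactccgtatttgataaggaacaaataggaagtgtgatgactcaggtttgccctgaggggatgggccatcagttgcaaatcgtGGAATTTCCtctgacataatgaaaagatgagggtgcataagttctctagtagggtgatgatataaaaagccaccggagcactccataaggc
IL6: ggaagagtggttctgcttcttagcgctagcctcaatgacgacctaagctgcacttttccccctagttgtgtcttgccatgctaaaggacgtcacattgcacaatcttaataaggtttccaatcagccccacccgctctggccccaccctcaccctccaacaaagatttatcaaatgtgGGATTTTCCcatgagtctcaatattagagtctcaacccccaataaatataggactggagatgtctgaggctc
GGANTTTCC was searched on both strands, and 1.69% of the 13956 promoters held it, against 4 of the 8 promoters of the 7 chemokine and receptor genes, those of CXCL1, CXCL2, CXCL3 and CXCL8. This share describes the list and not the comparison, and CXCL1, CXCL2 and CXCL3 are paralogs that share much of their sequence. Of the promoters of the lower genes as a whole, 5.59% of 179 held it, and of the higher genes 2.31% of 303. The 10 lower promoters with it include those of CXCL1, CXCL2, CXCL3, CXCL8 and IL6 and 1 of the 2 of IL32. The share of the lower genes thus rests largely on the cytokine genes already described. None of the promoters shown here held both motifs, and a match again says nothing about binding.

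**Figure D3:**
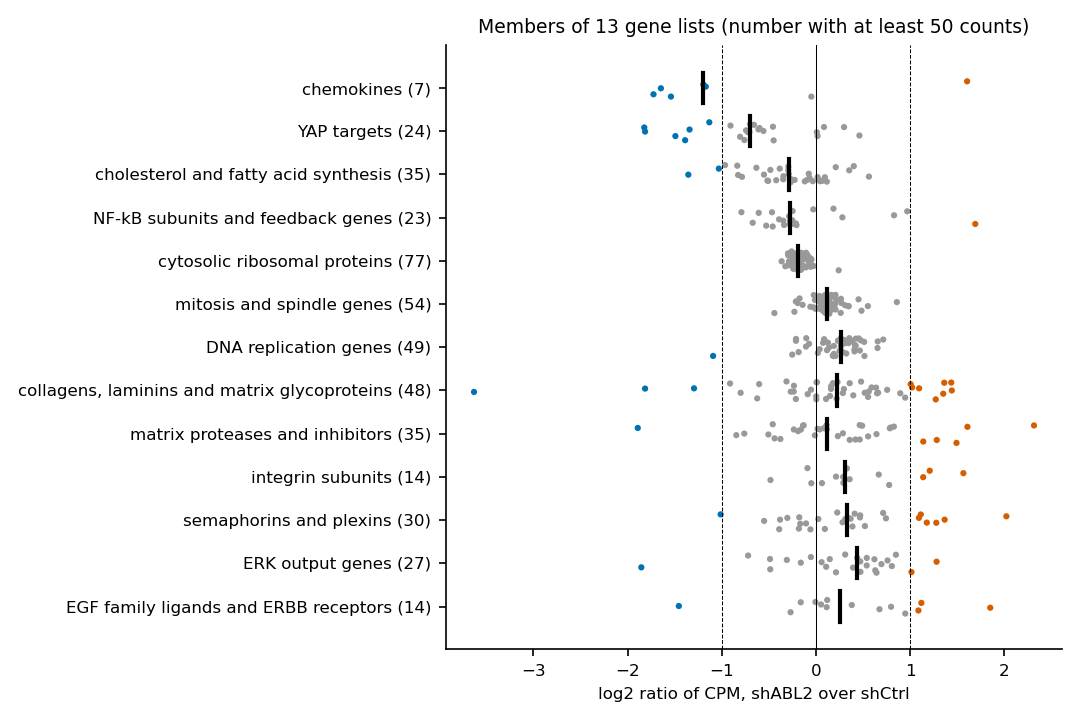
Log2 ratios of CPM, shABL2 over shCtrl, of the members of 13 gene lists with at least 50 counts, 1 point per gene, with the median of each list as a bar and genes over 2-fold in colour. Chemokines (median -1.19) and YAP targets (-0.70) lie to the left, and integrin subunits (0.31), semaphorins and plexins (0.33) and ERK output genes (0.44) lie to the right.

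Integrins, which anchor cells to the matrix, were higher in part. Of 14 measured subunits, 3 were over 2-fold higher (21.4%, against 2.64% of all genes) and none was lower, with a median of 0.31 against 0.03. ITGA1, a collagen and laminin receptor subunit, was at 418 CPM in shCtrl, 428 in shABL1, 922 in shABL2 and 465 in shABL1+shABL2, a ratio of 1.14 (1.09 to 1.19). ITGA2, another collagen receptor subunit, was at 342 CPM in shCtrl, 488 in shABL1, 792 in shABL2 and 557 in shABL1+shABL2, a ratio of 1.21 (1.16 to 1.26). The collagen-binding ITGA10 was at 40.7 CPM in shCtrl, 50.2 in shABL1, 121 in shABL2 and 70.8 in shABL1+shABL2, a ratio of 1.57 (1.42 to 1.72). In all 3 genes shABL2 was the highest sample, and the other knockdown samples lay between it and shCtrl or near shCtrl. ITGB1, the beta subunit these 3 pair with, had a log2 ratio of -0.05.

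Matrix genes moved in both directions. Of 48 collagens, laminins and matrix glycoproteins, 8 were higher (16.7%, against 2.64% of all genes) and 3 lower (6.25%, against 1.26%), with a median of 0.23. The higher genes were LTBP1 (103 to 249 CPM), which stores latent TGF-beta, the basement membrane proteins AGRN (327 to 665 CPM), COL4A5 (23.2 to 59.6 CPM) and LAMB3 (276 to 556 CPM), the hemidesmosome collagen COL17A1 (7.49 to 20.3 CPM), ECM1 (31 to 79.2 CPM), the lysyl oxidase LOXL1 (5.34 to 14.5 CPM) and the proteoglycan SPOCK1 (5.25 to 11.2 CPM). The lower ones were LOXL4, THBS1 and COL12A1 (85.6 to 34.9 CPM), a collagen of fibril surfaces. Of 35 matrix proteases and inhibitors, 5 were higher (14.3%, against 2.64% of all genes) and 1 lower (2.86%, against 1.26%). ADAM8 was at 196 CPM in shCtrl, 394 in shABL1, 552 in shABL2 and 407 in shABL1+shABL2 and ADAM19 at 80.3 CPM in shCtrl, 175 in shABL1, 245 in shABL2 and 195 in shABL1+shABL2, with ratios of 1.49 (1.43 to 1.56) and 1.61 (1.50 to 1.72), and both are membrane-bound shedding proteases. ADAM12, MMP16 (11.4 to 27.7 CPM) and the inhibitor TIMP4 (2.58 to 5.7 CPM) were the others. MMP2, the gelatinase that cuts basement membrane collagen, was at 95 CPM in shCtrl, 22 in shABL1, 25.6 in shABL2 and 22.4 in shABL1+shABL2, a ratio of -1.89 (-2.08 to -1.71), and all 3 knockdown samples were alike low. MMP14, which activates MMP2 at the cell surface, was at 734 CPM in shCtrl and 1305 in shABL2, a ratio of 0.83 that did not reach 2-fold.

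**Figure D4:**
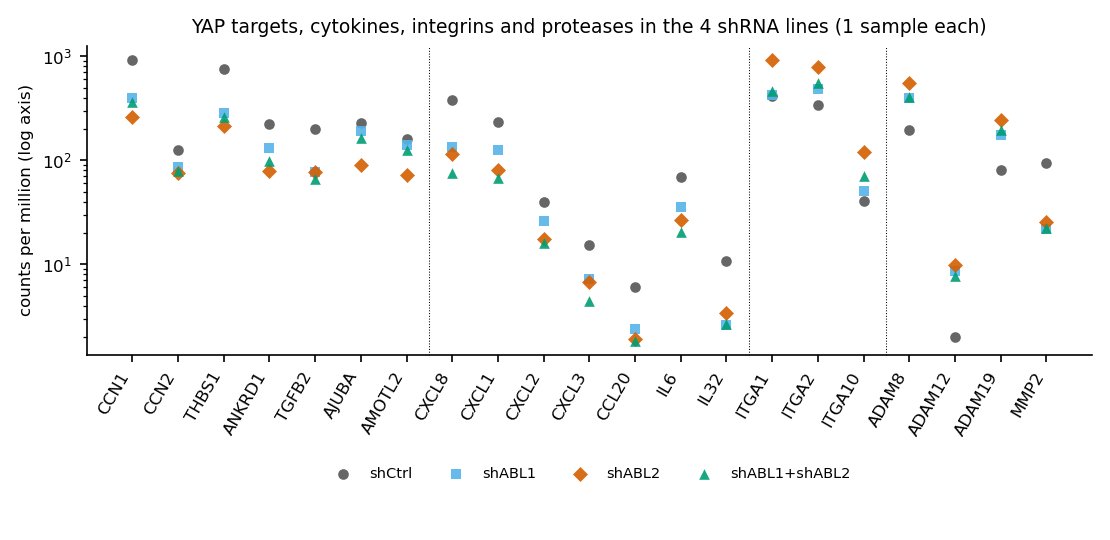
Levels in CPM (log axis) of 21 genes in the 4 shRNA samples, 1 point per sample, in blocks of YAP targets, chemokines and interleukins, integrins and proteases. shCtrl is the highest sample for CCN1, THBS1, CXCL8 and MMP2, and shABL2 is the highest for ITGA1 (922 CPM), ITGA2 and ITGA10.

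Among 29 ABL kinases and partners, ABL2 was the only gene lower and WASF3, an actin regulator of the WAVE complex, was higher (3.7 to 8.99 CPM), with a median of -0.13. Without ABL2 itself, 1 of 28 was over 2-fold apart, a share of 3.57% that is near the 3.91% of all genes. CTTN, the F-actin-binding ABL2 substrate cortactin, had a ratio of -0.14. Among 26 actin genes under SRF control, MYH9, the heavy chain of non-muscle myosin IIA, was at 2431 CPM in shCtrl, 1579 in shABL1, 1204 in shABL2 and 1525 in shABL1+shABL2. Its ratio of -1.01 (-1.04 to -0.99) was the only 1 of that list past 2-fold, a share of 3.85% near the 3.91% of all genes.

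Of genes with at least 1000 CPM in either sample, the 10 with the largest ratios include membrane and adhesion proteins. PODXL, an anti-adhesive sialomucin, was at 1259 CPM in shCtrl, 923 in shABL1, 540.3 in shABL2 and 735 in shABL1+shABL2, and its ratio was -1.22 (-1.26 to -1.18). EMP1, an epithelial membrane protein, was at 460.0 CPM in shCtrl, 874 in shABL1, 1044 in shABL2 and 852 in shABL1+shABL2, and PLXNA1, a semaphorin receptor, was at 649 CPM in shCtrl, 1066 in shABL1, 1469 in shABL2 and 1280.1 in shABL1+shABL2. Both ratios were close to 1.18, with narrow intervals from high counts. The phosphate transporter SLC20A1 went from 505 to 1067 CPM and the chromatin protein HMGA1 from 931 to 1797 CPM, and for HMGA1 the ratio of 0.95 (0.91 to 0.98) stayed under 2-fold. MYOF (-0.76) and IQGAP1 (-0.69) were lower and COL6A1 (0.66) was higher, all by under 2-fold.

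Of 30 semaphorins, plexins and related receptors, which guide axons and migrating cells, 6 were higher (20%, against 2.64% of all genes) and 1 was lower, with a median of 0.33. They were UNC5B, PLXNA1, PLXNA2 (45.5 to 97.1 CPM) and PLXNA4 (2.93 to 6.34 CPM), and the ligands SEMA3F (8.61 to 22.2 CPM) and SEMA6B (107 to 259 CPM). SEMA3D (5.34 to 2.65 CPM) was lower. In the EGF family, the ligands AREG (14.3 to 30.4 CPM), NRG2 (1.38 to 4.98 CPM) and BTC (2.07 to 4.5 CPM) were higher and LRIG1, a brake on EGF receptors, was lower (33.7 to 12.3 CPM), of 14 measured. Genes switched on by ERK had a median of 0.44 over 27 members. The same list had medians of 0.35 in shABL1 and 0.42 in shABL1+shABL2 over the same shCtrl sample, and 0.02 for shABL2 over shABL1. SPRY4 (225 to 547 CPM) and DUSP5 (140.0 to 283 CPM), which restrain the pathway, were higher, and DUSP8 (5.51 to 1.53 CPM), a phosphatase acting mainly on stress kinases, was lower. SPRY4 was at 625 CPM in shABL1 and 629 in shABL1+shABL2, DUSP5 at 199 and 213 CPM, and DUSP8 at 0.69 and 1.42 CPM. In the TGF-beta family of 44 genes, the receptor TGFBR2 was at 378 CPM in shCtrl, 637 in shABL1, 885 in shABL2 and 627 in shABL1+shABL2, a ratio of 1.22 (1.17 to 1.28), and shABL2 was the highest sample. ID1 (43.2 to 119.5 CPM), a target of BMP signals, and SMAD9 (2.24 to 4.98 CPM) were also higher, and TGFB2 and the activin antagonist FST (38.8 to 17.2 CPM) were lower. Of 27 Wnt genes, TCF7 (5 to 17.3 CPM) and LGR5 (1.98 to 6.58 CPM) were higher and WNT9A (18.9 to 7.79 CPM) and DKK1 lower. DKK1, a secreted Wnt inhibitor, was at 138 CPM in shCtrl, 72.1 in shABL1, 37.9 in shABL2 and 61.2 in shABL1+shABL2, lowest in shABL2. Of 30 other receptor tyrosine kinases and ligands, MERTK (17.6 to 35.8 CPM) and FGF1 (6.8 to 13.9 CPM) were higher and PDGFB (11.5 to 3.93 CPM) was lower. The ephrin EFNA1 (7.15 to 2.89 CPM) was the only 1 of 10 ephrin and EPH genes past 2-fold. Single genes were higher in other lists, with the Notch target family member HES6 (4.82 to 9.95 CPM), the interferon-stimulated IFI44L (5.17 to 11.8 CPM), the death receptor FAS (1.98 to 5.86 CPM), the protocadherin PCDHGA1 (3.01 to 6.26 CPM) and the lipoprotein receptor VLDLR (42.8 to 85.7 CPM). The lists of these single genes had shares of 6.25%, 2%, 3.85%, 5.56% and 2.7%, against 3.91% of all genes. Ephrin and EPH genes had 10%. The shares higher and lower were 21.4% and 7.14% in the EGF family and 7.41% and 3.7% for ERK genes. They were 6.82% and 4.55% in the TGF-beta family, 7.41% each for Wnt genes and 6.67% and 3.33% for other receptor tyrosine kinases. All genes had 2.64% and 1.26%.

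The 6 BCLM-associated genes, named for breast cancer lung metastasis, did not reach 2-fold in either direction. ANGPTL4, a secreted angiopoietin-like protein, was at 18.5 CPM in shCtrl, 32.1 in shABL1, 27.1 in shABL2 and 32.9 in shABL1+shABL2 (ratio 0.55, 0.30 to 0.80). TNC, the matrix protein tenascin C, was at 99.6 CPM in shCtrl, 147 in shABL1, 156 in shABL2 and 162 in shABL1+shABL2 (ratio 0.65, 0.54 to 0.76). These 2 and LY6E (ratio 0.49) were higher in every knockdown sample than in shCtrl. The collagenase MMP1 (0.36) and PTGS2 (0.15), the inducible cyclooxygenase, were slightly higher in shABL2. RARRES3, annotated as PLAAT4, had 74 and 92 counts, and the interval of its ratio held 0 (-0.24 to 0.67). In a wider list of 20 lung metastasis genes, ID1 and LTBP1 were higher and MMP2, NEDD9 (17.6 to 4.74 CPM), CXCL1 and MAN1A1 (48.4 to 22.2 CPM) were lower. These shares were 10% higher and 20% lower, against 2.64% and 1.26% of all genes.

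Of 35 genes of cholesterol and fatty acid synthesis, 26 had a ratio below 0 and 2 were over 2-fold lower (5.71%, against 1.26% of all genes), with a median of -0.29. HMGCS1, which makes HMG-CoA for sterol synthesis, was at 205 CPM in shCtrl, 95.4 in shABL1, 80 in shABL2 and 69.8 in shABL1+shABL2, and LSS, lanosterol synthase, was at 338 CPM in shCtrl, 209 in shABL1, 166 in shABL2 and 180.2 in shABL1+shABL2. For both, shCtrl was the highest sample. Hypoxia response genes split within the list of 30. The carbonic anhydrases CA9 and CA12 were higher, while ADM (239 to 108 CPM), the peptide adrenomedullin, the collagen hydroxylase PLOD2 (323 to 152 CPM) and ARNT2 (10.5 to 4.74 CPM) were lower, and the median was 0.07. The hypoxia shares were 6.67% higher and 10% lower, against 2.64% and 1.26% of all genes. Other lists with no gene over 2-fold were glycolysis (27 measured), antigen presentation (25), ER chaperones (26), NRF2 targets (27), lysosome and autophagy (42), ribosome biogenesis (45), mitochondrial mRNAs (13), small nucleolar RNA host genes (18), histones (12) and cancer-testis genes (7). Of the 77 cytosolic ribosomal protein genes, 76 had a ratio below 0, but none was beyond -0.36 and the median was -0.19.

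Mitosis genes separated shABL2 from the samples with the ABL1 hairpin. Of 54 mitosis and spindle genes none was over 2-fold apart from shCtrl, and their median was 0.12 in shABL2, 0.67 in shABL1 and 0.75 in shABL1+shABL2 over the same shCtrl sample. In the direct comparison of shABL2 with shABL1, which does not use shCtrl, 51 of the 54 were lower in shABL2 with a median of -0.62, against 0.01 for all genes. The summed level of the list was 7276 CPM in shCtrl, 11903 in shABL1, 7959 in shABL2 and 12031 in shABL1+shABL2. DNA replication genes (49) differed less, with a median of 0.27 over shCtrl and -0.16 over shABL1, and GINS2 (12.1 to 5.7 CPM), a subunit of the replicative helicase, was lower. The share of that list over 2-fold from shCtrl was 2.04%, against 3.91% of all genes. Integrins had a median of 0.43 over shABL1, and 10 of the 14 were above it.

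Compared directly, shABL2 differed by over 2-fold from shABL1 in 454 of 12363 genes (3.67%) and from shABL1+shABL2 in 142 of 12287 (1.16%). The latter sample carries the same ABL2 hairpin. MUC5AC, MUC5B and LGR5 were above shCtrl in shABL2 and higher still in both samples with the ABL1 hairpin. MUC5AC, a secreted gel-forming mucin, was at 52.6 CPM in shCtrl, 337 in shABL1, 114 in shABL2 and 307 in shABL1+shABL2, and MUC5B at 172 CPM in shCtrl, 671 in shABL1, 355 in shABL2 and 585 in shABL1+shABL2. MUC5AC and MUC5B are paralogs whose reads can be shared. LGR5, a stem cell receptor of R-spondins, was at 1.98 CPM in shCtrl, 19.1 in shABL1, 6.58 in shABL2 and 14.8 in shABL1+shABL2.

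On 38 of 12486 genes with at least 50 counts in 1 of the 4 shRNA samples, shABL2 lay over 2-fold above (16) or below (22) each of the other 3. The same measure gave 149 genes for shCtrl, 13 for shABL1 and 1 for shABL1+shABL2. Of the 324 genes higher in shABL2 than shCtrl, 4.94% were ones on which shABL2 stood apart, 24.7% were ones on which shCtrl stood apart (1 gene was in both sets), and 70.7% were in neither. Of the 155 lower genes, these shares were 10.3%, 40% (4 genes in both sets) and 52.3%. The unmatched gene ID ENSG00000112096.13, at 747 CPM in shCtrl, 208 in shABL1, 279.6 in shABL2 and 145 in shABL1+shABL2, has no name in the annotation used and was among the genes on which shCtrl lay above the rest. Since these genes were picked by their values, what follows is a description. LAPTM5, a lysosomal membrane protein best known from blood cells, was at 112 CPM in shCtrl, 94.7 in shABL1, 347 in shABL2 and 159.6 in shABL1+shABL2, and it had the highest counts among the 16. The pH-regulating enzymes CA9 (16.5 CPM in shCtrl, 14 in shABL1, 52.7 in shABL2 and 24.2 in shABL1+shABL2) and CA12 (100.3 CPM in shCtrl, 107 in shABL1, 277 in shABL2 and 138 in shABL1+shABL2) were in the same set. SLC16A6, a monocarboxylate transporter family member, was at 50.6 CPM in shCtrl, 45 in shABL1, 115 in shABL2 and 45.1 in shABL1+shABL2, with the other 3 samples within a narrow range. PKIA, an inhibitor of protein kinase A, went from 9.13 to 20.2 CPM, GLB1L2 from 4.39 to 9.55 CPM and TMEM117 from 2.07 to 4.98 CPM. F2RL3, ADAMTS14, INSYN2A, EGR3 and CCR1 were also above all others.

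Below all others were F13A1, ELF3, ALPK2, CCN5 and SAA2, described above, and several receptors and regulators at low counts. OXTR, the oxytocin receptor, had 51 counts in shCtrl, 77 in shABL1, 16 in shABL2 and 45 in shABL1+shABL2. RGS5, a brake on G-protein signalling, had 35 counts in shCtrl, 63 in shABL1, 13 in shABL2 and 38 in shABL1+shABL2. BMP5, a bone morphogenetic protein, had 55 counts in shCtrl, 91 in shABL1, 19 in shABL2 and 44 in shABL1+shABL2, and the transcription factor CASZ1 had 37 counts in shCtrl, 73 in shABL1, 16 in shABL2 and 37 in shABL1+shABL2. In each of these 4 genes shABL1 was the highest sample and shABL2 the lowest. RGS5 and CASZ1, and GLP2R below, had under 50 counts in shCtrl and shABL2 and entered this set only through shABL1, so that the high place of shABL1 is in part set by the minimum. GLP2R, an intestinal peptide hormone receptor, had 13 counts in shCtrl, 57 in shABL1, 2 in shABL2 and 28 in shABL1+shABL2, a ratio of -2.80 (-5.99 to -0.66).

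**Figure D5:**
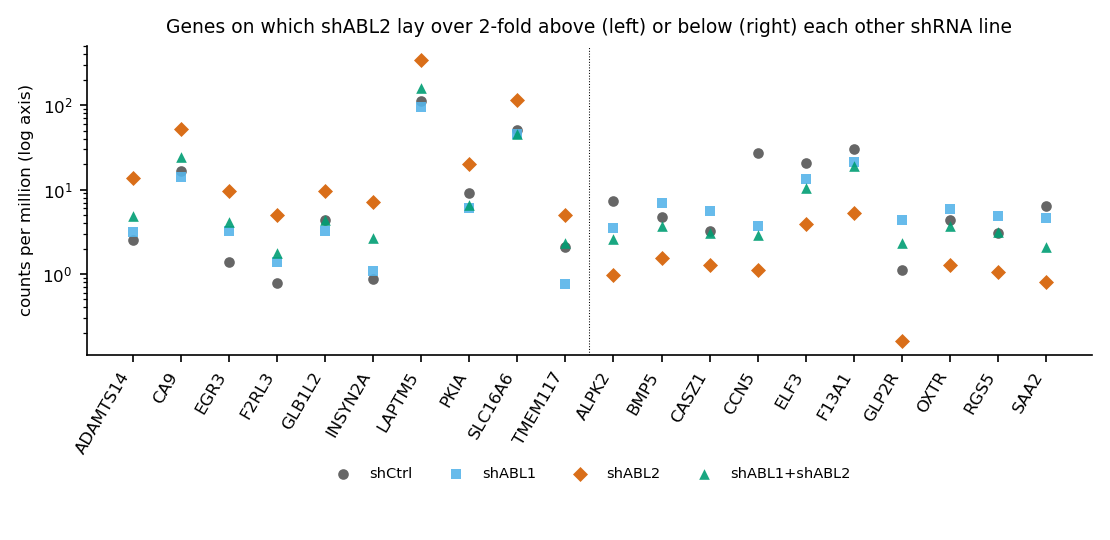
Levels in CPM (log axis) in the 4 shRNA samples of the 10 protein-coding genes on which shABL2 (diamonds) lay farthest above and the 10 on which it lay farthest below each other sample. LAPTM5 reached 347 CPM in shABL2 against at most 160 CPM elsewhere, and the lowest shABL2 point is GLP2R at 2 counts.

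The genes called included 32 higher and 7 lower lncRNAs. Their share of the lncRNAs tested is not given here, so these counts cannot be set beside the 2.64% and 1.26% of all genes. THBS1-IT1, an RNA annotated inside the THBS1 gene, went from 7.58 to 0.321 CPM, a ratio of -4.56 (-6.47 to -3.15) beside -1.81 for THBS1. HCP5, an RNA of the HLA region, had 8 counts in shCtrl, 81 in shABL1, 62 in shABL2 and 60 in shABL1+shABL2, and LINC00887 had 11 counts in shCtrl, 43 in shABL1, 52 in shABL2 and 34 in shABL1+shABL2. KRT7-AS, antisense to the keratin gene KRT7, went from 7.84 to 2.57 CPM, and KRT7 itself from 312 to 145 CPM. ATP2B1-AS1 (2.58 to 7.55 CPM), SLC22A18AS (2.33 to 6.66 CPM), LINC01547 (2.84 to 8.91 CPM) and LINC02970 (8.01 to 24.6 CPM) were higher, as were 2 lncRNAs with no symbol, ENSG00000229771 (2.58 to 10 CPM) and ENSG00000260401 (2.93 to 11.2 CPM). Whether the counting used strand is not given in the sources used here, so reads of an RNA and of a gene it overlaps cannot be told apart. KRT7, CLDN1 (8.18 to 2.33 CPM) and CD24 (26.3 to 10.2 CPM) were the 3 lower genes among 28 genes of epithelial and mesenchymal state (10.7%, against 1.26% of all genes), of which none was higher.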

How the data were processed

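RNA of LM2 cells was measured by bulk RNA-seq, and the authors deposited 1 file of raw read counts per gene for each sample, without normalization. Per the labels and the submitters' processing notes, reads were checked with FastQC, mapped with TopHat to hg38 and counted with HTSeq 0.6.0. The annotation release and the strand setting of the counting are not given in the sources used here. Reads overlapping 2 genes or none were left out by the counter (6.18% and 9.48% in shCtrl, 6.12% and 9.9% in shABL2).

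Counts were scaled to CPM over the counts on genes, and the log2 ratio of shABL2 over shCtrl was taken for genes with at least 50 counts in 1 of the 2 samples, with a count of 0 set to a floor of 3 counts. Intervals are exact (Clopper-Pearson) 95% intervals of the share of counts between both samples. Those of single levels are Clopper-Pearson intervals of the gene's share of the counts on genes. With 1 sample per group no test was made. Gene names and positions are from GENCODE 44 on GRCh38 (54836 of 58688 IDs matched), and promoters are from RefSeq. Of the genes on the lists, 5 (SOD2, SNHG4, H2AC18, H3C2 and BAGE) had no row matched by ID and were left out, and 110 of the genes compared had no name. Genes were named by a fixed rule: ABL2 and ABL1, the 15 largest rises and falls, members of 43 gene lists over 2-fold, the 6 BCLM-associated genes, the 10 genes farthest from all other shRNA samples in each direction, the 10 largest changes of genes with at least 1000 CPM and the 10 largest of non-coding genes. The result of 1 of the lists is not reported here. The members and lists were chosen with earlier results of these data known. The ratio was checked on simulated counts of 11979 genes with counting error only, of which 197 changed by 4-fold: all 197 were called, with 1 false call. The simulation had no spread between cultures, so it does not show how many of the genes called here are false. Alternatives used edgeR 4.0.16 and DESeq2 1.42.0. The DMSO and Ponatinib samples served only for the spread between their replicates, since 68 genes with at least 100 counts in each of them had 0 in each shRNA sample.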

Additional observations from a re-analysis of the deposited data

How the results depend on the processing

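The counts of genes over 2-fold depended on the filter on low counts. Against 324 higher and 155 lower genes, a minimum of 10 counts gave 817 and 441, no filter 3441 and 3475, and a minimum of 200 counts 146 and 90. Requiring the whole counting interval to lie beyond 2-fold gave 97 and 71. A fit of all 8 samples with fold over 2 and P under 0.05, in which only the DMSO and Ponatinib replicates give a spread and the shRNA samples are assumed to vary like them, gave 533 higher and 379 lower genes with edgeR and 174 higher with DESeq2, whose 127 lower genes were within 1.5 times the main count. TMM scaling (270 and 178), DESeq2 size factors (283 and 174), 2 added counts (308 and 142) and protein-coding genes alone (284 and 144) stayed within 1.5 times. With a minimum of 200 counts, shABL2 stood apart on 13 genes and shCtrl on 70, against 38 and 149. The log2 ratio of ABL2 ranged from -1.35 to -1.29 over its 4 alternatives. Of 455 values of 151 single genes under alternatives, 434 stayed within their counting interval, 21 moved and none changed sign, and the largest move was that of GLP2R, from -2.80 to -1.98 with 2 added counts. Of 602 counts of list members under alternatives, 500 stayed within 1.5 times and 102 did not, 78 of them under other filters or the interval rule and 24 under another scaling or added counts. The 6 lower YAP targets stayed at 6 under each of these, and the 5 lower chemokines fell to 3 with a minimum of 200 counts and to 2 by the interval rule. No paired analysis was possible because each group compared has 1 sample, with no replicate number. Depth limits the genes under 50 counts in both samples, which are outside the 12263 genes compared (GLP2R, RGS5 and CASZ1 were named through the 4-sample set alone), and with 1 culture and 1 hairpin per group the differences between cultures, and effects of the hairpin on other mRNAs, were not tested.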

Other observations

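The genes in this part were picked after their values were seen, so they are described and not tested, and no cause was weighed. Some further complement and acute-phase genes were lower, beside SAA2, CP, C4A and C4B, whereas the complement activator CFP was higher (2.41 to 13.7 CPM). The complement proteases C1S and C1R went from 47.1 to 16.5 CPM and 68 to 33 CPM, and the acute-phase protein SAA1 was at 19.6 CPM in shCtrl, 12.8 in shABL1, 5.06 in shABL2 and 9.74 in shABL1+shABL2. CEBPD, a transcription factor of the acute-phase response, was at 81.1 CPM in shCtrl, 30.1 in shABL1, 22.5 in shABL2 and 23.9 in shABL1+shABL2, a log2 ratio of -1.85 (-2.05 to -1.66). EDN1, the vasoconstrictor endothelin 1, went from 23.9 to 5.78 CPM, and TNFRSF11B, the decoy receptor osteoprotegerin, from 12.2 to 3.13 CPM. Cystatins of chromosome 20, inhibitors of cysteine proteases, were higher. CST1 was at 61 CPM in shCtrl, 118 in shABL1, 206 in shABL2 and 121 in shABL1+shABL2, CST4 at 43.8 CPM in shCtrl, 71.9 in shABL1, 139.9 in shABL2 and 82.3 in shABL1+shABL2 and CST2 at 18 CPM in shCtrl, 38.4 in shABL1, 51 in shABL2 and 33.7 in shABL1+shABL2, and these close paralogs can share reads. For all 3, shABL2 was the highest and shCtrl the lowest sample.

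Some widely used genes differed by about 2-fold from well-measured levels. RPN1, a subunit of the oligosaccharyltransferase of the endoplasmic reticulum, was at 176 CPM in shCtrl, 229.9 in shABL1, 76 in shABL2 and 152 in shABL1+shABL2, below all other samples with shABL2. CCNI, a cyclin family member, was at 424 CPM in shCtrl, 373 in shABL1, 187 in shABL2 and 311 in shABL1+shABL2, and CD164, a sialomucin, at 200.4 CPM in shCtrl, 204 in shABL1, 84.1 in shABL2 and 144 in shABL1+shABL2. In these 2 genes shABL1 was near shCtrl and shABL1+shABL2 lay between shABL2 and shABL1. The small GTPase RALA had the order of CCNI, at 62.1 CPM in shCtrl, 51.9 in shABL1, 25.1 in shABL2 and 38.6 in shABL1+shABL2.

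UGCG, glucosylceramide synthase, was at 481 CPM in shCtrl, 131 in shABL1, 145 in shABL2 and 102 in shABL1+shABL2, and the imprinted, retrotransposon-derived PEG10 was at 528 CPM in shCtrl, 65.1 in shABL1, 179 in shABL2 and 100 in shABL1+shABL2. Both were below shCtrl in every knockdown sample. IL11, a cytokine of the IL6 family, differed between the single knockdowns. It was at 24.8 CPM in shCtrl, 162 in shABL1, 25 in shABL2 and 139.8 in shABL1+shABL2, so that shABL2 was level with shCtrl (log2 ratio 0.01, -0.22 to 0.25) and both samples with the ABL1 hairpin were far above them.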
